A study of Homo sapiens with 6 samples.

Results

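The transcriptional coactivator YAP, its partner TAZ, the TEAD transcription factors and a set of their target genes were followed in lung adenocarcinoma cells after knockdown of BCAT1. The 10 genes were taken by gene name from a table of 60664 genes, and they were chosen with earlier results of these data known. They were the coactivators YAP1 and WWTR1 (the gene of TAZ), the DNA-binding factors TEAD1 and TEAD4, and the targets CCN1, CCN2, ANKRD1, AMOTL2, LATS2 and AJUBA. RNA-seq had been made from 67R cells, a line derived from EGFR-mutant NCI-H1975 lung adenocarcinoma cells by growth in the EGFR inhibitor ASK120067 until they were resistant. All 6 libraries came from this resistant line, and no parental cells were sequenced with them. In 3 libraries the cells had received a negative control siRNA (siNC), and in 3 an siRNA against BCAT1 (siBCAT1), the cytosolic enzyme that transfers the amino group of branched-chain amino acids. The study's methods list 2 target sequences for BCAT1 and use the name siBCAT1 for the second, siBCAT1-2. The time after transfection is not in the labels, which also do not say whether the libraries were separate cultures, so the p-values measure the spread between these samples, which may be technical.

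In the Hippo pathway, the MST kinases activate the LATS kinases, which phosphorylate YAP and TAZ and keep them out of the nucleus. Unphosphorylated YAP and TAZ enter the nucleus and bind TEAD factors, which bring them to DNA. Their targets include secreted matrix proteins and also inhibitors of the pathway's own output, and much of this regulation acts on the proteins, which RNA levels do not show. YAP signalling is known for its role in survival of EGFR-mutant lung cancer cells under EGFR inhibitors.

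The targeted gene was measured first. BCAT1 was at 42.7, 42.18 and 29.76 TPM (a level scaled to gene length and to the library's total) in the siNC libraries and at 8.78, 7.1 and 8 TPM in the siBCAT1 libraries. The groups did not overlap, and BCAT1 fell by 2.12 on the log2(TPM + 1) scale (SE 0.154, limma with Benjamini-Hochberg adjusted p = 0.000272). The libraries held between 23152 and 25043 genes above 0, and their depth is unknown because TPM values keep no read totals. Of the 14286 genes that averaged 1 TPM or more, 3865 (27.1%) passed an adjusted p of 0.05, with 2382 (16.7%) rising and 1483 (10.4%) falling after knockdown. The markers of epithelium summed to 2564 to 2969 TPM in siNC and to 1664 to 1951 TPM in siBCAT1. Of the 7 markers, 5 (KRT7, KRT8, KRT18, KRT19 and CDH1) fell. EPCAM was higher after knockdown, with means of 1.27 TPM in siNC and 2.33 TPM in siBCAT1 (limma adjusted p = 0.0732). EGFR was lower, with means of 20.5 and 15.2 TPM (limma adjusted p = 0.0643), and neither gene passed the test. All libraries came from the same resistant cell line and not from tissue, so these lists do not measure shares of tissue cell types. Whether a marker changed in all cells of the line or in a part of them cannot be told from bulk RNA. NKX2-1, NAPSA and SFTPB, which mark the lung lineage, were under 1 TPM in every library. Of the markers of other cells, the fibroblast genes LUM and DCN and the T cell gene CD3E were at 0 in every library, and the endothelial list summed to at most 2.61 TPM. The fibroblast list summed to 253 to 274 TPM in siNC and to 189 to 245 TPM in siBCAT1, nearly all from COL1A2, and 2 of its 3 tested genes fell. The leukocyte list summed to 30.3 to 39.2 TPM in siNC and to 53.5 to 60.7 TPM in siBCAT1, nearly all from CD68, which rose. The part of these markers in the results below was not tested.

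Among the 10 genes, TEAD4, CCN1, CCN2 and ANKRD1 rose and YAP1 and AMOTL2 fell after BCAT1 knockdown, while WWTR1, TEAD1, LATS2 and AJUBA did not pass the test. The matricellular proteins CCN1 and CCN2 had the largest rises, to 2.21 and 2.23 times the siNC mean in TPM. Thus 4 of 10 rose against 16.7% of all genes tested, and 2 of 10 fell against 10.4%. This balance depends on the scaling, since 3 rose and 4 fell with median-ratio scaling and with quantile normalization, where ANKRD1 lost its call and TEAD1 and AJUBA were called lower. The groups did not overlap for 7 of the 10 genes, against 44.1% of all genes tested. With 3 libraries against 3, an exact two-sided permutation test of a single gene cannot go below p = 0.1, and the calls therefore rest on limma across all genes. The median log2 fold change was -0.12 over the 10 genes and 0.04 over all genes tested. Fold changes on the log2(TPM + 1) scale understate the change of low genes.

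**Figure D1:**
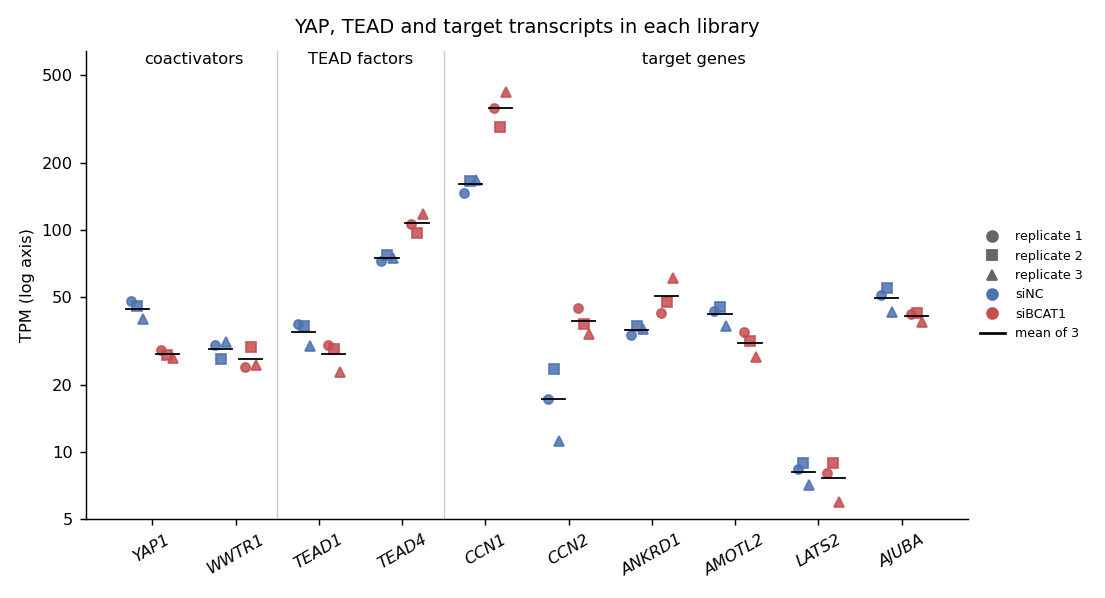
TPM of each of the 10 genes in each library, with siNC and siBCAT1 side by side, a point per library and a bar at the group mean. The siBCAT1 points lie above all siNC points for TEAD4, CCN1, CCN2 and ANKRD1, below them for YAP1, AMOTL2 and AJUBA, and overlap them for WWTR1, TEAD1 and LATS2.

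YAP1 (ENSG00000137693, chromosome 11, 102110461 to 102233423, plus strand; GENCODE 29 on GRCh38) encodes YAP, the main effector of the pathway. It was at 47.9, 45.4 and 39.79 TPM in siNC and at 28.75, 27.47 and 26.59 TPM in siBCAT1. Every siBCAT1 library lay below every siNC library. The mean went from 44.4 ± 4.15 to 27.6 ± 1.09 TPM (SD, n = 3), a log2 fold change of -0.66 (SE 0.0875, 95% interval -0.87 to -0.46, adjusted p = 0.00227). Among all genes tested, 5.999% had a larger fall.

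WWTR1 (ENSG00000018408, chromosome 3, 149517235 to 149736714, minus strand) encodes TAZ, the paralog of YAP. It was at 30.27, 26.31 and 31.24 TPM in siNC and at 24.22, 29.9 and 24.77 TPM in siBCAT1. The second siBCAT1 library lay within the siNC range and the groups overlapped. Its log2 fold change was -0.15 (SE 0.109, 95% interval -0.41 to 0.10, adjusted p = 0.347). YAP1 and WWTR1 summed to 73.6 ± 3.94 TPM in the siNC libraries and 53.9 ± 3.11 TPM in the siBCAT1 libraries, and YAP1 made up 60.2% ± 3.76 and 51.3% ± 3.22 of that sum (SD, n = 3), without overlap between groups. The level of WWTR1 relative to YAP1 depends on the gene length that the table gives, 1603 bases for WWTR1 and 5398 bases for YAP1. The 3′ UTR of the GENCODE transcript used here for WWTR1 alone has 3570 bases.

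TEAD1 and TEAD4 are paralogous TEAD factors that bind the same DNA word. TEAD1 (ENSG00000187079, chromosome 11, 12674591 to 12944483, plus strand) was at 37.92, 36.98 and 30.01 TPM in siNC and at 30.51, 29.27 and 22.98 TPM in siBCAT1. The third siNC library lay between the siBCAT1 libraries, and the groups overlapped. The log2 fold change was -0.33 (SE 0.135, 95% interval -0.65 to -0.02, adjusted p = 0.110). TEAD1 was called lower in 5 of 15 alternative fits, among them one with a block for replicate number (limma adjusted p = 0.0150). TEAD4 (ENSG00000197905, chromosome 12, 2959330 to 3040673, plus strand) was at 72.79, 77.02 and 75.14 TPM in siNC and at 106.33, 97.54 and 118.48 TPM in siBCAT1. Every siBCAT1 library lay above the siNC libraries, which were close together. TEAD4 went from 74.98 ± 2.12 to 107 ± 10.5 TPM (SD, n = 3) with a log2 fold change of 0.51 (SE 0.0802, 95% interval 0.32 to 0.70, adjusted p = 0.00430), and 11.5% of genes had a larger rise.

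The 4 TEAD genes summed to 151 ± 4.395 TPM in siNC and 184 ± 9.46 TPM in siBCAT1 (SD, n = 3). TEAD4 was the most abundant in every library, with 49.8% ± 2.41 of the sum in siNC and 58.3% ± 3.70 in siBCAT1. The share of TEAD1 was 23.2% ± 2.27 in siNC and 15.03% ± 2.54 in siBCAT1, and neither share overlapped between groups. The ratio of TEAD4 to TEAD1 was 1.92, 2.08 and 2.504 in siNC and 3.49, 3.33 and 5.16 in siBCAT1. TEAD2 went from 28.2 ± 2.15 to 32.9 ± 1.23 TPM (adjusted p = 0.0848) and TEAD3 from 12.4 ± 1.72 to 16.2 ± 2.23 TPM (adjusted p = 0.0940), and neither passed the test although their groups did not overlap. The level of TEAD4 relative to TEAD1 depends on the gene length that the table gives, 1710 bases for TEAD4 and 9417 bases for TEAD1. The ratio was highest in replicate 3 of each group, where long genes ran low, as described below. The shares and ratios are descriptions and were not tested.

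**Figure D2:**
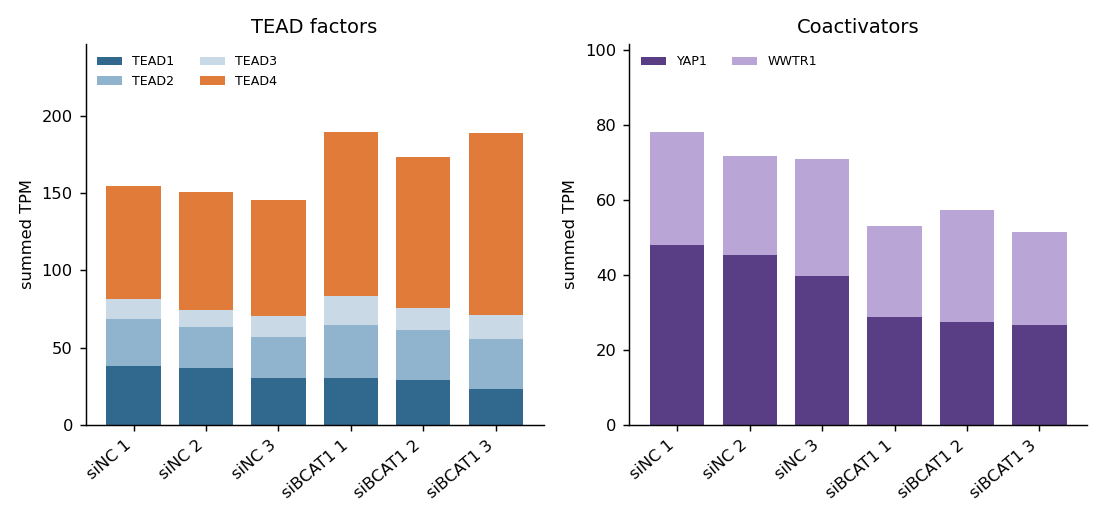
Summed TPM of the TEAD family and of the YAP1 and WWTR1 pair in each library, as stacked bars with a segment for each gene. TEAD4 takes 47.1% to 51.5% of the TEAD sum in siNC and 56.0% to 62.6% in siBCAT1.

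CCN1 and CCN2, secreted matricellular proteins that are among the most used readouts of YAP, both rose. CCN1 (ENSG00000142871, chromosome 1, 85580761 to 85583962, plus strand) was at 147.38, 166.71 and 169.16 TPM in siNC and at 356.97, 291.92 and 420.95 TPM in siBCAT1. The lowest siBCAT1 library was well above the highest siNC library, and CCN1 was the most abundant of the 10 genes in both groups. The mean went from 161 ± 11.9 to 357 ± 64.5 TPM (SD, n = 3), a log2 fold change of 1.13 (SE 0.129, 95% interval 0.82 to 1.43, adjusted p = 0.00133). CCN2 (ENSG00000118523, chromosome 6, 131948176 to 131951373, minus strand) was at 17.32, 23.78 and 11.24 TPM in siNC and at 44.86, 37.81 and 34.07 TPM in siBCAT1. The groups did not overlap, although the siNC libraries differed among themselves more than those of CCN1 in relation to their mean. CCN2 went from 17.4 ± 6.27 to 38.9 ± 5.48 TPM with a log2 fold change of 1.16 (SE 0.243, 95% interval 0.59 to 1.73, adjusted p = 0.0130). Without the filter on low values its adjusted p was 0.0508. Larger rises were found in 1.72% of genes for CCN1 and in 1.53% for CCN2. CCN1 made up 90.3% of the CCN1 and CCN2 sum in siNC and 89.96% in siBCAT1, with overlapping groups.

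ANKRD1 (ENSG00000148677, chromosome 10, 90912096 to 90921276, minus strand), which encodes an ankyrin repeat protein, was at 33.79, 36.87 and 35.81 TPM in siNC and at 42.48, 47.74 and 61.1 TPM in siBCAT1. Each siBCAT1 library lay above the siNC range, and the third was the highest. The mean went from 35.5 ± 1.56 to 50.4 ± 9.60 TPM (SD, n = 3), a log2 fold change of 0.48 (SE 0.130, 95% interval 0.18 to 0.78, adjusted p = 0.0323). The call was lost when siNC replicate 1, 2 or 3 or siBCAT1 replicate 2 was left out (adjusted p = 0.0950, 0.0526, 0.0791 and 0.0704), and when GC content and gene length were corrected for (log2 fold change 0.39, adjusted p = 0.0841).

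AMOTL2, LATS2 and AJUBA are targets that themselves act on the pathway. AMOTL2 (ENSG00000114019, chromosome 3, 134355874 to 134375479, minus strand) encodes an angiomotin family protein that binds YAP and holds it in the cytoplasm. It was at 43.08, 45.25 and 37.08 TPM in siNC and at 34.97, 31.78 and 26.81 TPM in siBCAT1. The groups did not overlap, but the lowest siNC and highest siBCAT1 values were close. The mean went from 41.8 ± 4.23 to 31.2 ± 4.11 TPM (SD, n = 3), a log2 fold change of -0.41 (SE 0.119, 95% interval -0.69 to -0.14, adjusted p = 0.0395). Leaving out siNC replicate 1 or 2 or siBCAT1 replicate 2 or 3 ended this call (adjusted p = 0.110, 0.0926, 0.0880 and 0.0996).

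LATS2 (ENSG00000150457, chromosome 13, 20973032 to 21061547, minus strand), the kinase that phosphorylates YAP and TAZ, was at 8.4, 8.91 and 7.15 TPM in siNC and at 8.03, 8.96 and 5.95 TPM in siBCAT1. The groups overlapped, and the third library was the lowest in each. Its log2 fold change was -0.09 (SE 0.159, 95% interval -0.47 to 0.28, adjusted p = 0.701). AJUBA (ENSG00000129474, chromosome 14, 22971174 to 22982642, minus strand), a LIM domain protein that inhibits LATS kinases, was at 51.08, 54.74 and 42.81 TPM in siNC and at 41.89, 42.3 and 38.5 TPM in siBCAT1. The siBCAT1 libraries were all below the siNC libraries, by a narrow margin between the nearest values. AJUBA had a log2 fold change of -0.26 (SE 0.101, 95% interval -0.50 to -0.03, adjusted p = 0.0952). AJUBA was called lower in 5 of 15 alternative fits, among them the one with a block for replicate number (limma adjusted p = 0.0375). The values of AJUBA are uncertain because it overlaps the protein-coding gene AL132780.3 on the same strand, which reached 9.19 TPM.

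Seeds of siRNAs can act on other transcripts through matching words in their 3′ UTRs, so these words were searched in the 11670 tested genes with a 3′ UTR. The 7-base word TTGAGCA, complementary to the seed of siBCAT1-2, was in 11.4% of these genes and in 0 of the 10. Its 6-base part TGAGCA was in 33.1% of genes and in 4 of the 10, namely WWTR1, ANKRD1, LATS2 and AJUBA. Their sites are shown because they are the members that hold a word of the siRNA the study calls siBCAT1, and the capitals mark the word.
WWTR1 3′ UTR site: gtactaattaTGAGCAttttattc
ANKRD1 3′ UTR site: atccatctggTGAGCAgagcttca
LATS2 3′ UTR site: ataggaagtgTGAGCAaggtgatg
LATS2 3′ UTR site: gagtactgcaTGAGCAgagttctt
AJUBA 3′ UTR site: ggggaggtaaTGAGCAgatctctg
Of these genes ANKRD1 rose, and WWTR1, LATS2 and AJUBA did not pass the test. The 7-base word of siBCAT1-1, AGACAAT, was in 8.98% of genes and in YAP1 and WWTR1. Its 6-base part GACAAT was in 20.8% of genes and in YAP1, WWTR1 and AMOTL2. Of these genes YAP1 and AMOTL2 fell, and WWTR1 did not pass the test. The labels do not say which siRNA sequence was used. The part of these words in the results was not tested.

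**Figure D3:**
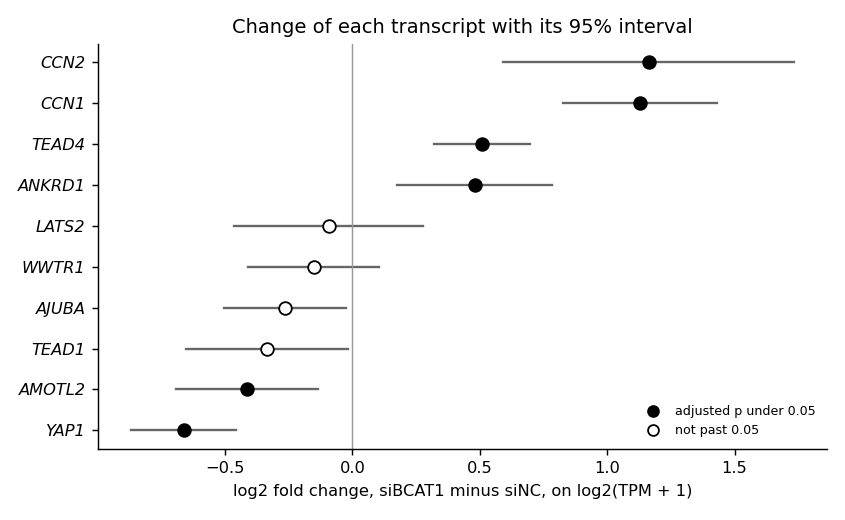
Log2 fold change (siBCAT1 minus siNC, on log2(TPM + 1)) of each of the 10 genes with its 95% interval, filled where the adjusted p was under 0.05. CCN2 (1.16) and CCN1 (1.13) lie farthest above 0 and YAP1 (-0.66) farthest below.

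The order of the levels differed between groups. In siNC it was CCN1, TEAD4, AJUBA, YAP1, AMOTL2, ANKRD1, TEAD1, WWTR1, CCN2 and LATS2 by mean TPM. Of these neighbours, AJUBA and YAP1, YAP1 and AMOTL2, ANKRD1 and TEAD1, and TEAD1 and WWTR1 overlapped. In siBCAT1 the order was CCN1, TEAD4, ANKRD1, AJUBA, CCN2, AMOTL2, YAP1, TEAD1, WWTR1 and LATS2, and neighbours from AJUBA to WWTR1 overlapped. YAP1 moved from rank 4 to rank 7, ANKRD1 from 6 to 3 and CCN2 from 9 to 5. The ratio of CCN1 to YAP1 was 3.08, 3.67 and 4.25 in siNC and 12.4, 10.6 and 15.8 in siBCAT1. This ratio was not among the planned comparisons. It joins the rise of CCN1 and the fall of YAP1 given above, and was not tested.

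The word GGAATG, which TEAD factors are known to bind, reads CATTCC on the other strand and was searched on both strands in RefSeq promoters (GRCh38.p14) reaching from 250 bases before to 50 after the start. It occurred in 4928 of 35116 promoters (14.03%). YAP1, WWTR1, CCN2, ANKRD1, AMOTL2, LATS2 and AJUBA matched 10 promoters, and 6 of these promoters (60%) had the word. All genes but WWTR1 had it in at least 1, and AMOTL2 and AJUBA also each matched a promoter without it. No entry was matched for TEAD1, TEAD4 and CCN1. Promoters of CCN2 and ANKRD1, which rose, and of YAP1 and AMOTL2, which fell, are shown to compare where the word lies, with the word in capitals, each 5′ to 3′ on the strand of its gene.
CCN2 promoter, chr6:131951447-131951556, minus strand: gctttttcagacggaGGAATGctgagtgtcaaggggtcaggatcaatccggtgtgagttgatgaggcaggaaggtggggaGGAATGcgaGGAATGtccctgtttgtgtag
ANKRD1 promoter, chr10:90921195-90921322, minus strand: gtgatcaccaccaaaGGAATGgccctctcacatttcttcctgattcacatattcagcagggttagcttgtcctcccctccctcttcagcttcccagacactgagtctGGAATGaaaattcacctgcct
YAP1 promoter, chr11:102110270-102110305, plus strand: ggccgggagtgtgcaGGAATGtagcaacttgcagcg
AMOTL2 promoter, chr3:134374496-134374531, minus strand: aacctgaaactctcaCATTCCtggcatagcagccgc
CCN2 holds 3 copies, which 0.128% of all promoters reach, and ANKRD1 holds 2, which 1.37% reach. YAP1 and AMOTL2 each hold the word once in the stretch shown. LATS2 and AJUBA, which did not pass the test, each hold 1 copy in a promoter not shown. A match describes the sequence and does not show binding. Most of these genes were chosen as targets of YAP and TEAD, so 60% beside 14.03% is a description and no test. Whether the number of copies went with the direction of change was not tested.

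The other genes of the pathway were grouped in lists by role. Of 14 genes of the Hippo kinase module, all tested, 1 rose, 1 fell and 12 did not pass the test, so 14.3% were called against 27.1% of all genes. The list had a median log2 fold change of -0.02. MAP4K4, a kinase that can activate LATS, rose from 39.8 ± 1.68 to 55.8 ± 2.58 TPM (SD, n = 3; log2 fold change 0.48, SE 0.0691, adjusted p = 0.00314). FRMD6, a FERM domain protein upstream of the kinases, fell from 31.6 ± 2.32 to 21.8 ± 0.788 TPM (log2 fold change -0.51, SE 0.0820, adjusted p = 0.00455). The most abundant was NF2 (merlin), a scaffold that activates LATS, at 108 ± 10.3 and 117 ± 6.17 TPM (adjusted p = 0.324).

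Of 9 partners of YAP, TAZ and TEAD, 6 were tested, 0 rose and 1 fell (16.7% called, against 27.1% of all genes), and WTIP, VGLL1 and VGLL3 were under the filter on low values. VGLL4, which competes with YAP for TEAD, fell from 9.12 ± 1.29 to 5.12 ± 0.821 TPM (SD, n = 3; log2 fold change -0.73, SE 0.148, adjusted p = 0.0118). The most abundant partner was TEAD2, with the values given above.

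The rest of a published 22-gene list of YAP and TAZ targets holds 17 genes, of which 16 were tested and FOXF2 was under the filter. Of the 16, 0 rose (16.7% of all genes tested), 4 fell (10.4% of all genes) and 12 did not pass the test. Thus 25% of this list was called against 27.1% of all genes, and whether it differed from the 10 genes was not tested. AXL, a receptor tyrosine kinase, fell from 63.3 ± 0.638 to 44.2 ± 2.49 TPM (SD, n = 3; log2 fold change -0.51, adjusted p = 0.00213). GADD45B, a stress response gene, fell from 73.5 ± 2.28 to 50.8 ± 5.71 TPM (log2 fold change -0.53, adjusted p = 0.00542). DOCK5 and ARHGEF17, which encode exchange factors for small GTPases, fell by 0.62 and 0.51 on the log2 scale (adjusted p = 0.0172 and 0.0196). DOCK5 lost its call without siNC replicate 1 (adjusted p = 0.0575), and ARHGEF17 without siNC replicate 1 or siBCAT1 replicate 1 or 3 (adjusted p = 0.0588, 0.0659 and 0.0596). Without the filter on low values both lost it (adjusted p = 0.0541 for DOCK5 and 0.0582 for ARHGEF17). ARHGEF17 also lost it with a correction for GC content and length plus a replicate block (adjusted p = 0.0506). The same held for ARHGEF17 without replicate 3 of both groups (adjusted p = 0.0610). The most abundant was MYOF (myoferlin), at 67.9 ± 4.61 and 60.7 ± 2.04 TPM (adjusted p = 0.150). The median log2 fold change of the 16 was -0.16, with 5 above and 11 below 0 whatever their test, and the highest was that of RBMS3 (0.64, adjusted p = 0.0770).

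**Figure D4:**
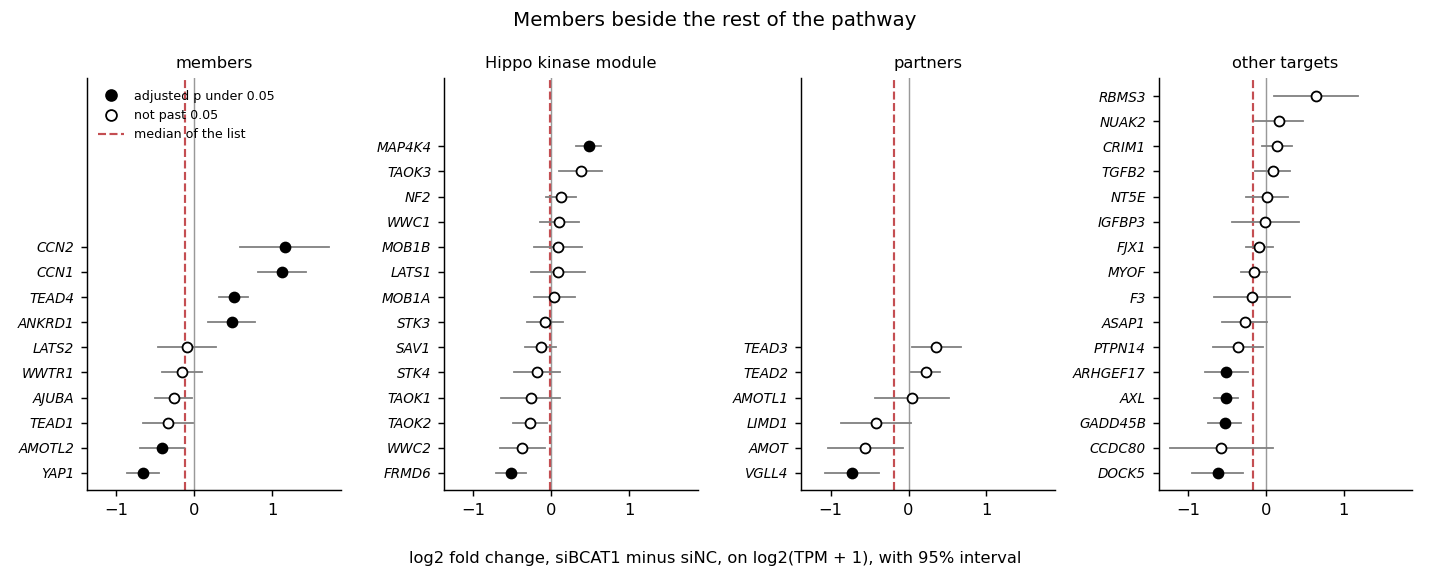
Log2 fold change (siBCAT1 minus siNC) with its 95% interval for each tested gene of the 10 genes, the Hippo kinase module, the partners and the other targets, filled where the adjusted p was under 0.05, with a dashed line at the median of each list. Filled points lie on both sides of 0 among the 10 genes and the kinase module, and only below 0 among the partners (VGLL4) and the other targets (AXL, GADD45B, DOCK5, ARHGEF17).

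Gene length moved with the calls. The 5 members with 4000 bases or more by the table (YAP1, TEAD1, AMOTL2, LATS2 and AJUBA, 4168 to 9417 bases) included both that fell and none that rose, and the 5 shorter members (1603 to 2338 bases) included all 4 that rose. All 5 long members had their lowest value in replicate 3 of both groups, as did 1 of the 5 shorter members. Over the 4343 tested genes of at least 4000 bases, the median deviation from the group mean on the log2 scale was -0.07 in siNC replicate 3 and -0.06 in siBCAT1 replicate 3, against 0.06 and 0.07 in replicate 1. The median log2 fold change was -0.01 for these long genes and 0.05 to 0.09 in classes of shorter genes, and the part of length in the calls was not tested beyond the correction that follows. After correction for both GC content and length, 3 members were higher and 3 lower: ANKRD1 was no longer called, and TEAD1 passed the test (log2 fold change -0.30, adjusted p = 0.0395). Leaving out replicate 3 of both groups, a choice made after the values were seen, kept YAP1, TEAD4, CCN1 and CCN2 called. With 2 libraries against 2, ANKRD1 (log2 fold change 0.34, adjusted p = 0.108), AMOTL2 (-0.39, adjusted p = 0.0674) and VGLL4 (-0.62, adjusted p = 0.107) no longer passed, while the fold change of AMOTL2 moved little from -0.41.

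**Figure D5:**
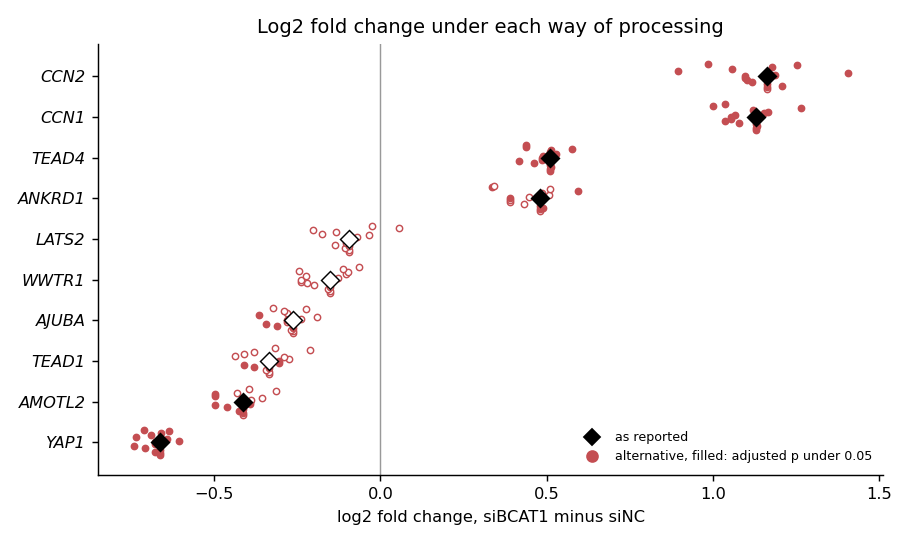
Log2 fold change of each of the 10 genes in the reported fit and in the 15 alternative settings, filled where the adjusted p was under 0.05. YAP1 (-0.74 to -0.61), TEAD4 (0.42 to 0.58) and CCN1 (1.00 to 1.26) are filled in every setting, and WWTR1 and LATS2 in none.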

How the data were processed

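RNA was measured in 6 libraries of 67R cells, 3 siNC and 3 siBCAT1, grouped by their labels. The authors deposited a table with 1 value for each gene in each library, which was read as TPM because each library summed to 992512 to 995593 beside a gene length. Per the submitters' processing notes, fastp, HISAT2, StringTie and GRCh38 were used, and the annotation release is not given in the sources used here. Libraries were prepared with a stranded kit, and the strand setting is not given. No depth or counting error can be had from TPM.

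After a log2(TPM + 1) transformation, limma 3.58.1 (R 4.3.3, lmFit and eBayes, trend on) was fitted to the 14286 of 60664 genes that averaged 1 TPM or more. Tests were two-sided, and p-values were adjusted over all these genes by Benjamini-Hochberg, with a threshold of 0.05. The script was tested on simulated data with 200 planted changes. A share of 0.765 of them was called, 0 in the wrong direction, so a gene that did not pass may still have changed. Gene lists are described by counts and medians, with no set test. The 10 members, the lists and the tests were chosen with earlier results of these data known. Named genes were BCAT1, the 10 members, the cell type markers and, from each other list, the genes past the threshold (at most 6 in each direction) and the most abundant gene. RBMS3 and TEAD3 were named after their values were seen. Positions and 3′ UTRs came from GENCODE 29, and promoters from RefSeq (GRCh38.p14). The siRNA seed words were read from the target sequences in the study's methods. A comparison of protein sequences was not made here. Alternatives varied the filter, the pseudocount (0.1), scaling, a replicate block, a correction for GC content and length (both available for 99.0% of genes), and the libraries. Python 3.11.15, pandas 2.3.3, numpy 2.4.6 and matplotlib 3.10.9 were used.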

Additional observations from a re-analysis of the deposited data

How the results depend on the processing

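In all 15 alternatives BCAT1, YAP1, TEAD4 and CCN1 were called in the reported direction. CCN2 lost its call in 1 (no filter), ANKRD1 in 9 and AMOTL2 in 6, while TEAD1 and AJUBA were called lower in 5 each. The cause was not tested. Without the filter, 2567 genes were called in place of 3865, with 2 members higher, 1 member lower and 2 other targets lower. Members called lower numbered 4 with the replicate block and with the GC content and length correction plus the block (4 higher in each), and with median-ratio scaling and quantile normalization (3 higher in each). In the Hippo kinase module, 2 genes were higher with a minimum of 5 TPM, a pseudocount of 0.1, the block, quantile normalization and the GC content and length correction with or without the block. In that module 2 were lower with a minimum of 5 TPM and with that correction with or without the block, and 3 with median-ratio scaling and quantile normalization. Partners called higher numbered 2 with the block and 1 with that correction, with or without the block. Leaving out libraries, including replicate 3 of both groups (chosen after seeing the data), gave 1450 to 3783 genes (2493 at the least with 1 library left out), 1 to 3 members lower, 1 to 2 kinase module genes higher, 1 to 2 lower, 0 to 2 partners lower and 2 to 5 other targets lower. LATS2 then ranged from -0.20 to 0.056, above 0 without siBCAT1 replicate 3. The reported fit was planned without the block because the study names no covariate. Replicate numbers are shared between groups, and same-numbered libraries deviated together weakly (r = 0.0844, 0.102 and 0.124). Each of the 6 libraries correlated best with its own number, and the block called 4568 genes. Of called genes, 61.6% were higher, and 52.1% to 65.5% over the alternatives. Depth is unknown, so the limit it sets could not be given.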
